A study of Mus musculus with 9 samples.

Results

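The genes described are the mouse matrix metalloproteinases (Mmp genes), the membrane-bound ADAM proteases, the secreted ADAMTS proteases and the tissue inhibitors of metalloproteinases (Timp genes). They were taken by symbol: Mmp, Adam or Adamts followed by a number, or Timp1 to Timp4, among protein-coding genes. This gave 78 genes of the 56289 identifiers measured, of which 22 were MMP, 33 ADAM, 19 ADAMTS and 4 TIMP genes. The levels are FPKM (fragments per kilobase of gene model, scaled to sequencing depth), and 33 of the genes reached 1 FPKM in 3 or more of the 9 libraries, the filter used throughout: 10 MMP, 10 ADAM, 10 ADAMTS and 3 TIMP genes. Of these, 28 were at or above 1 FPKM in all 9 libraries.

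RNA with poly-A tails was sequenced in 9 libraries labelled as RAW264.7, a macrophage-like line of BALB/c mouse origin, with 3 libraries per group. One group received tumour necrosis factor alpha together with WBG for 24 h (TNF plus WBG), one received tumour necrosis factor alpha for 24 h (TNF), and one was untreated. WBG stands for Wang Bi granules, a Chinese herbal preparation named in the study's title in connection with rheumatoid arthritis. The labels used here give no dose of either agent, no culture time for the untreated cells and no group that received WBG without TNF. They also do not say whether the libraries of a group came from separate cultures, so the p-values measure the spread between these libraries, which may be technical.

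The labelled cell type was checked against marker genes. Of 10 macrophage markers, 2 reached a mean of 1 FPKM (Cd14 at 5.63 and Cd68 at 1.30), and Ptprc, Itgam and Adgre1 were listed at 0 in all libraries. Of 10 fibroblast markers, 8 reached a mean of 1 FPKM, with Col1a1 at 791 to 1021 FPKM and Fn1 at 694 to 899 FPKM. Dcn averaged 2.29 FPKM, Thy1 was at most at 0.0687 FPKM, and Lum was listed at 0 in all libraries. The summed macrophage markers were at 7.78 to 10.2 FPKM in TNF plus WBG, 6.86 to 7.86 in TNF and 5.87 to 7.23 in untreated libraries. The summed fibroblast markers were at 2804 to 3012 FPKM in TNF plus WBG, 2968 to 2990 in TNF and 2718 to 2971 in untreated libraries. These levels go against the labelled macrophage line. The part of these cell type markers in the results was not tested, and the libraries are called here by their treatment and not by a cell type. None of 7 epithelial and endothelial and none of 7 neutrophil and mast cell markers reached a mean of 1 FPKM. FPKM summed to 427781 to 436809 per library, and 12611 to 12737 genes reached 1 FPKM.

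MMPs and ADAMTS enzymes cut proteins of the extracellular matrix, such as collagens and the cartilage proteoglycan aggrecan. ADAMs sit in the plasma membrane, and the active ones release the outer parts of other membrane proteins, among them tumour necrosis factor itself. Most are made as inactive zymogens, in which a propeptide blocks the catalytic zinc until it is cut off, and TIMPs bind the opened active site. In arthritic joints, fibroblasts and macrophages of the synovium are known sources of these enzymes.

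The zinc is held by 3 histidines in a short shared stretch: histidine, glutamate, 2 residues of any kind, histidine, 2 of any kind, glycine or asparagine, 2 of any kind, histidine. The 33-base coding sequences of that stretch are shown for 9 of the enzymes described below, because this site is what makes them proteases and what TIMPs cover. They are from GENCODE M21 transcripts, 5′ to 3′, with the 3 histidine codons in capitals.
Mmp2: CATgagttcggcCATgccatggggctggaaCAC
Mmp9: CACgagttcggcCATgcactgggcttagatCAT
Mmp17: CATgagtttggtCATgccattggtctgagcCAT
Adam10: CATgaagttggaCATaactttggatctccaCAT
Adam12: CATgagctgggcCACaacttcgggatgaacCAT
Adam17: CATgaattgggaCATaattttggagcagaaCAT
Adamts1: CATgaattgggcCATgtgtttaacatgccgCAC
Adamts4: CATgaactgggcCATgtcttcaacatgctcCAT
Adamts7: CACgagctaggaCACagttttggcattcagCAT

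Among the genes above the 1 FPKM filter the stretch was found in the longest coding sequence of 10 of 10 MMPs, 8 of 10 ADAMs and 10 of 10 ADAMTS genes, and in 0 of 3 TIMPs. The ADAMs without it were Adam11 and Adam23, which belong to the ADAMs known to act in adhesion and not as proteases. A furin-type cleavage site (arginine, any residue, lysine or arginine, arginine) stood before it in 7 of 10 MMPs, 7 of 8 ADAMs and 9 of 10 ADAMTS genes. Mmp2, Mmp9 and Mmp19 were the MMPs without such a site. These are matches of letters and not measured cleavage.

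By level, 3 genes led the 78. Mmp2, gelatinase A, which degrades denatured collagen and basement membrane, averaged 513 ± 8.36 FPKM in TNF plus WBG, 523 ± 2.75 in TNF and 589 ± 2.25 in untreated libraries (SD, n = 3 each, as for all means given). Timp2, which inhibits MMPs and also serves as the adaptor through which Mmp14 activates pro-Mmp2, averaged 213 ± 4.44 FPKM in TNF plus WBG, 223 ± 3.17 in TNF and 228 ± 1.30 in untreated libraries. Mmp14, the membrane-type MMP that carries out that activation, averaged 146 ± 4.64 FPKM in TNF plus WBG, 172 ± 16.5 in TNF and 148 ± 2.13 in untreated libraries. The next highest value of any member in any library was 62.4 FPKM, that of Adamts1 in a TNF library. FPKM is a level per gene length, so these genes can be ranked against each other.

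**Figure D1:**
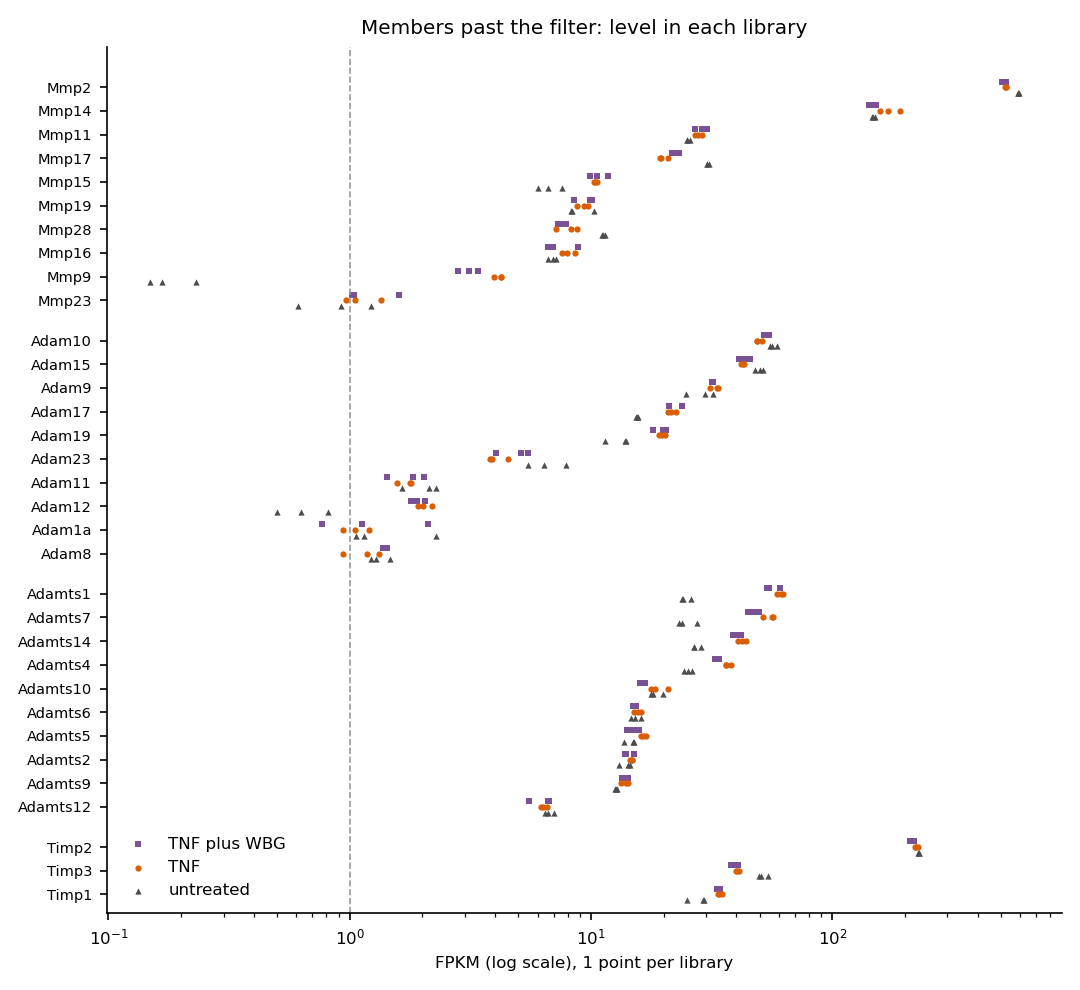
FPKM of the 33 genes above the filter, on a log axis, by family, with 1 point per library (squares TNF plus WBG, circles TNF, triangles untreated) and a dashed line at 1 FPKM. Mmp2, Timp2 and Mmp14 lie above all others, and Mmp9 and Adam12 are the genes whose untreated points fall farthest below their treated points.

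Summed over each family, Mmp2 made up 68.3% of MMP FPKM in TNF plus WBG, 66.6% in TNF and 71.2% in untreated libraries, and Timp2 made up 74.5% of TIMP FPKM in TNF plus WBG, 74.9% in TNF and 74.2% in untreated libraries. No single gene led the ADAM or ADAMTS sums to that degree. ADAMTS sums were 258 ± 4.54 FPKM in TNF plus WBG, 282 ± 2.65 in TNF and 185 ± 6.10 in untreated libraries. MMP sums were 752 ± 12.6 FPKM in TNF plus WBG, 785 ± 18.7 in TNF and 828 ± 3.68 in untreated libraries. TIMP sums were 286 ± 5.03 FPKM in TNF plus WBG, 297 ± 2.46 in TNF and 308 ± 3.65 in untreated libraries. ADAM sums were 184 ± 2.52 FPKM in TNF plus WBG, 177 ± 2.34 in TNF and 177 ± 2.16 in untreated libraries. These sums are descriptions and were not tested. In bulk RNA, fewer cells of one type and less RNA per cell cannot be told apart.

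The first comparison sets TNF against untreated libraries and addresses the response of these genes to the cytokine. Of the 33 members above the filter, 10 rose, 7 fell and 16 did not pass the test (limma on log2 of FPKM plus 1, adjusted over 13026 genes). Over all genes above the filter, 10.6% were called, 6.43% higher and 4.21% lower. The median log2 fold change was 0.12 over the members and 3.41e-05 over all genes. By family, higher, lower and not called, the counts were 2, 3 and 5 for MMPs, 3, 3 and 4 for ADAMs, 4, 0 and 6 for ADAMTS genes, and 1, 1 and 1 for TIMPs. The groups did not overlap for 23 of the 33 members, beside 30% of all genes. Mmp9 and Adam12 passed the filter through the treated libraries alone, so their difference is in part a condition of being counted, and the shares are given as a description.

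**Figure D2:**
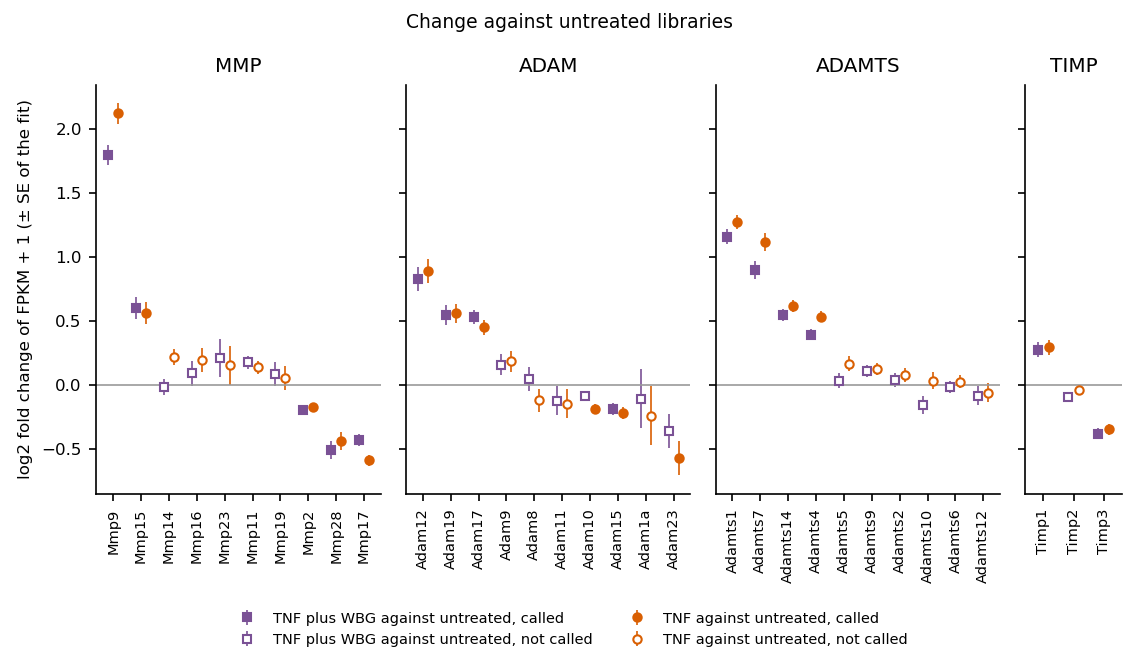
Log2 fold change with its standard error for the 33 genes above the filter, in TNF plus WBG and in TNF, each against untreated, on the log2(FPKM + 1) scale, with called genes filled. Both comparisons share the untreated libraries, and no member was called in opposite directions.

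Among the gelatinases, Mmp9 (gelatinase B) stood at 2.82, 3.39 and 3.13 FPKM in the TNF plus WBG libraries, at 3.95, 4.22 and 4.25 FPKM in the TNF libraries, and at 0.149, 0.167 and 0.231 FPKM in the untreated libraries. All treated libraries were far above all untreated ones, and every TNF plus WBG library was below every TNF library. Mmp9 passed the filter through its treated libraries alone, so its separation from untreated libraries is in part a condition of being counted. Its log2 fold change was 2.12 ± 0.08 (SE) in TNF against untreated (limma adjusted p = 8.3e-07) and 1.80 ± 0.08 in TNF plus WBG against untreated (limma adjusted p = 2.48e-06). No ratio is given, since the untreated mean is under 1 FPKM. The size of this log2 value rests on the pseudocount: in TNF against untreated it was 3.92 with 0.1 and 0.82 with 5.

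Mmp2 was at 507, 510.1 and 523 FPKM in TNF plus WBG, at 525, 524 and 519.7 FPKM in TNF, and at 589.7, 587 and 591 FPKM in untreated libraries. The untreated libraries were above all treated ones, while the treated groups overlapped. Mmp2 fell to 0.887 times its untreated mean in TNF (log2 fold change -0.17 ± 0.03, limma adjusted p = 0.00249).

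Among membrane-type MMPs, Mmp17, which is held in the membrane by a lipid anchor, was at 21.7, 23.2 and 22.1 FPKM in TNF plus WBG, at 19.3, 20.9 and 19.4 FPKM in TNF, and at 30.1, 30.8 and 30.4 FPKM in untreated libraries. The 3 groups did not overlap. Its log2 fold change in TNF against untreated was -0.59 ± 0.05 (limma adjusted p = 5.52e-05), to 0.653 times the untreated mean. Mmp15, a transmembrane MMP, was at 10.5, 11.8 and 9.91 FPKM in TNF plus WBG, at 10.4, 10.3 and 10.6 FPKM in TNF, and at 6.06, 7.57 and 6.65 FPKM in untreated libraries. It rose 1.54 times in TNF (log2 0.56 ± 0.08, limma adjusted p = 0.00292), with the treated groups overlapping.

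Mmp14 was at 144, 142 and 151 FPKM in TNF plus WBG, at 189.8, 171 and 157 FPKM in TNF, and at 146, 147 and 150.3 FPKM in untreated libraries. All TNF libraries were above the other 6, with the first TNF library highest. The difference in TNF against untreated, log2 0.22 ± 0.06, did not pass the test (limma adjusted p = 0.0618), and without TNF replicate 3 it did (0.0164). Mmp28 (epilysin), a secreted MMP, was at 7.89, 7.62 and 7.31 FPKM in TNF plus WBG, at 8.27, 8.74 and 7.18 FPKM in TNF, and at 11.1, 11.2 and 11.5 FPKM in untreated libraries, and fell in TNF (log2 -0.44 ± 0.07, limma adjusted p = 0.00431). Its treated libraries were all below the untreated ones. About 12.0% of its exon bases overlap another gene, and whether reads were counted by strand is not given in the sources used here.

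The other MMPs above the filter were not called. Mmp11 (stromelysin-3) averaged 28.6 ± 1.66 FPKM in TNF plus WBG, 27.8 ± 1.01 in TNF and 25.2 ± 0.356 in untreated libraries. Mmp16, another membrane-type MMP, averaged 7.47 ± 1.17 FPKM in TNF plus WBG, 8.06 ± 0.488 in TNF and 6.91 ± 0.273 in untreated libraries, Mmp19 9.51 ± 0.860 FPKM in TNF plus WBG, 9.26 ± 0.497 in TNF and 8.95 ± 1.15 in untreated libraries (28.3% of its exon bases overlap other genes), and Mmp23 1.22 ± 0.329 FPKM in TNF plus WBG, 1.12 ± 0.201 in TNF and 0.921 ± 0.308 in untreated libraries.

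Among the ADAM sheddases, Adam17, the enzyme that releases tumour necrosis factor from the membrane, was at 23.9, 23.9 and 20.97 FPKM in TNF plus WBG, at 21.4, 20.8 and 22.6 FPKM in TNF, and at 15.4, 15.5 and 15.7 FPKM in untreated libraries. All treated libraries were above all untreated ones, and the treated groups overlapped. Adam17 rose 1.39 times in TNF (log2 0.45 ± 0.06, limma adjusted p = 0.00136). Adam10, which cuts Notch receptors and N-cadherin, was at 53.1, 54.8 and 51.9 FPKM in TNF plus WBG, at 48.7, 51.3 and 48.8 FPKM in TNF, and at 55.3, 56.2 and 58.8 FPKM in untreated libraries. The 3 groups did not overlap, with TNF lowest and untreated highest. Adam10 fell in TNF, to 0.874 times its untreated mean (log2 -0.19 ± 0.04, limma adjusted p = 0.0183), a call lost without untreated replicate 3, TNF replicate 1 or TNF replicate 3 (limma adjusted p up to 0.0673).

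Adam12 (meltrin alpha), studied in muscle and mesenchymal cells, was at 2.04, 1.90 and 1.80 FPKM in TNF plus WBG, at 1.92, 2.18 and 2.00 FPKM in TNF, and at 0.499, 0.816 and 0.627 FPKM in untreated libraries. Its treated libraries were all above the untreated ones (log2 0.89 ± 0.09 in TNF, limma adjusted p = 0.000389). Adam12 passed the filter through its treated libraries alone, so that separation is in part a condition of being counted. Its untreated mean was 0.647 FPKM. In TNF against untreated its log2 value ran from 0.32 to 1.54 over the alternative settings, pseudocounts among them, apart from omission of a library. Adam19 (meltrin beta), a sheddase of neuregulin, was at 19.9, 20.4 and 18.1 FPKM in TNF plus WBG, at 19.6, 20.2 and 19.1 FPKM in TNF, and at 11.5, 13.8 and 13.9 FPKM in untreated libraries. It rose 1.5 times in TNF (log2 0.56 ± 0.08, limma adjusted p = 0.00191), and antisense genes overlap 15.0% of its exon bases. Treated and untreated libraries did not overlap.

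Adam15 (metargidin), which carries an integrin-binding disintegrin domain, was at 43.6, 41.2 and 45.7 FPKM in TNF plus WBG, at 43.0, 41.8 and 42.6 FPKM in TNF, and at 50.01, 51.5 and 47.8 FPKM in untreated libraries. Adam23 was at 4.03, 5.13 and 5.50 FPKM in TNF plus WBG, at 3.81, 4.52 and 3.87 FPKM in TNF, and at 6.37, 7.89 and 5.49 FPKM in untreated libraries. For both genes every untreated library was above every TNF library. The falls in TNF (log2 -0.22 ± 0.05 for Adam15 and -0.57 ± 0.13 for Adam23, limma adjusted p = 0.0174 and 0.0281) were each lost on leaving out TNF replicate 3, or 1 of untreated replicates 1 and 2. Adam15 was also lost without TNF replicate 2 and Adam23 without TNF replicate 1, with limma adjusted p up to 0.0614 for Adam15 and 0.0899 for Adam23. An antisense gene covers 20.6% of the exon bases of Adam15.

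The ADAMs that were not called in any comparison were Adam9, Adam8, Adam11 and Adam1a. Adam9 averaged 32.0 ± 0.165 FPKM in TNF plus WBG, 32.7 ± 1.30 in TNF and 28.8 ± 3.63 in untreated libraries. Adam8 averaged 1.40 ± 0.0248 FPKM in TNF plus WBG, 1.14 ± 0.193 in TNF and 1.33 ± 0.128 in untreated libraries, and Adam11 1.76 ± 0.308 FPKM in TNF plus WBG, 1.71 ± 0.129 in TNF and 2.01 ± 0.331 in untreated libraries. Adam1a is uncertain, because 99.0% of its exon bases overlap other genes, and it averaged 1.33 ± 0.694 FPKM in TNF plus WBG, 1.07 ± 0.135 in TNF and 1.497 ± 0.686 in untreated libraries.

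Of the ADAMTS genes above the filter, Adamts1, Adamts4, Adamts7 and Adamts14 rose in TNF and none was called lower. Adamts1, which cuts versican and aggrecan, was at 54.6, 53.5 and 60.6 FPKM in TNF plus WBG, at 61.4, 62.4 and 58.8 FPKM in TNF, and at 24.1, 23.8 and 26.0 FPKM in untreated libraries. It rose 2.47 times in TNF (log2 1.27 ± 0.06, limma adjusted p = 2.36e-06). All treated libraries lay above all untreated ones, and the treated groups overlapped. Adamts7, which cuts cartilage oligomeric matrix protein, was at 47.1, 44.5 and 49.5 FPKM in TNF plus WBG, at 56.5, 51.6 and 56.7 FPKM in TNF, and at 23.9, 23.2 and 27.5 FPKM in untreated libraries. The 3 groups did not overlap, with TNF highest. Adamts7 rose 2.21 times in TNF (log2 1.11 ± 0.07, limma adjusted p = 1.58e-05).

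Adamts4, an aggrecanase, was at 33.6, 32.6 and 33.9 FPKM in TNF plus WBG, at 37.9, 36.4 and 36.3 FPKM in TNF, and at 24.2, 26.3 and 25.1 FPKM in untreated libraries. Again the 3 groups did not overlap and TNF was highest (1.46 times untreated, log2 0.53 ± 0.04, limma adjusted p = 6.81e-05). Adamts14, which trims procollagens at their amino end, was at 41.7, 40.7 and 38.7 FPKM in TNF plus WBG, at 42.4, 40.8 and 43.7 FPKM in TNF, and at 26.7, 28.5 and 26.7 FPKM in untreated libraries. It rose 1.55 times in TNF (log2 0.61 ± 0.05, limma adjusted p = 5.48e-05), and its treated groups overlapped.

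Adamts5, the other main aggrecanase, averaged 14.9 ± 0.838 FPKM in TNF plus WBG, 16.4 ± 0.350 in TNF and 14.6 ± 0.782 in untreated libraries and was not called (limma adjusted p = 0.112 in TNF against untreated). Adamts2, which also trims procollagens, averaged 14.3 ± 0.681 FPKM in TNF plus WBG, 14.7 ± 0.179 in TNF and 13.9 ± 0.779 in untreated libraries. Adamts6, Adamts9, Adamts10 and Adamts12 were not called either, with log2 fold changes in TNF against untreated of 0.02, 0.12, 0.03 and -0.06. Adamts6 averaged 15.1 ± 0.220 FPKM in TNF plus WBG, 15.6 ± 0.510 in TNF and 15.3 ± 0.727 in untreated libraries, and Adamts10, which binds fibrillin, 16.5 ± 0.499 FPKM in TNF plus WBG, 19.01 ± 1.65 in TNF and 18.5 ± 1.19 in untreated libraries. Adamts9, which cuts versican, averaged 13.8 ± 0.438 FPKM in TNF plus WBG, 13.9 ± 0.463 in TNF and 12.7 ± 0.158 in untreated libraries, and Adamts12 6.27 ± 0.640 FPKM in TNF plus WBG, 6.38 ± 0.167 in TNF and 6.70 ± 0.317 in untreated libraries.

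**Figure D3:**
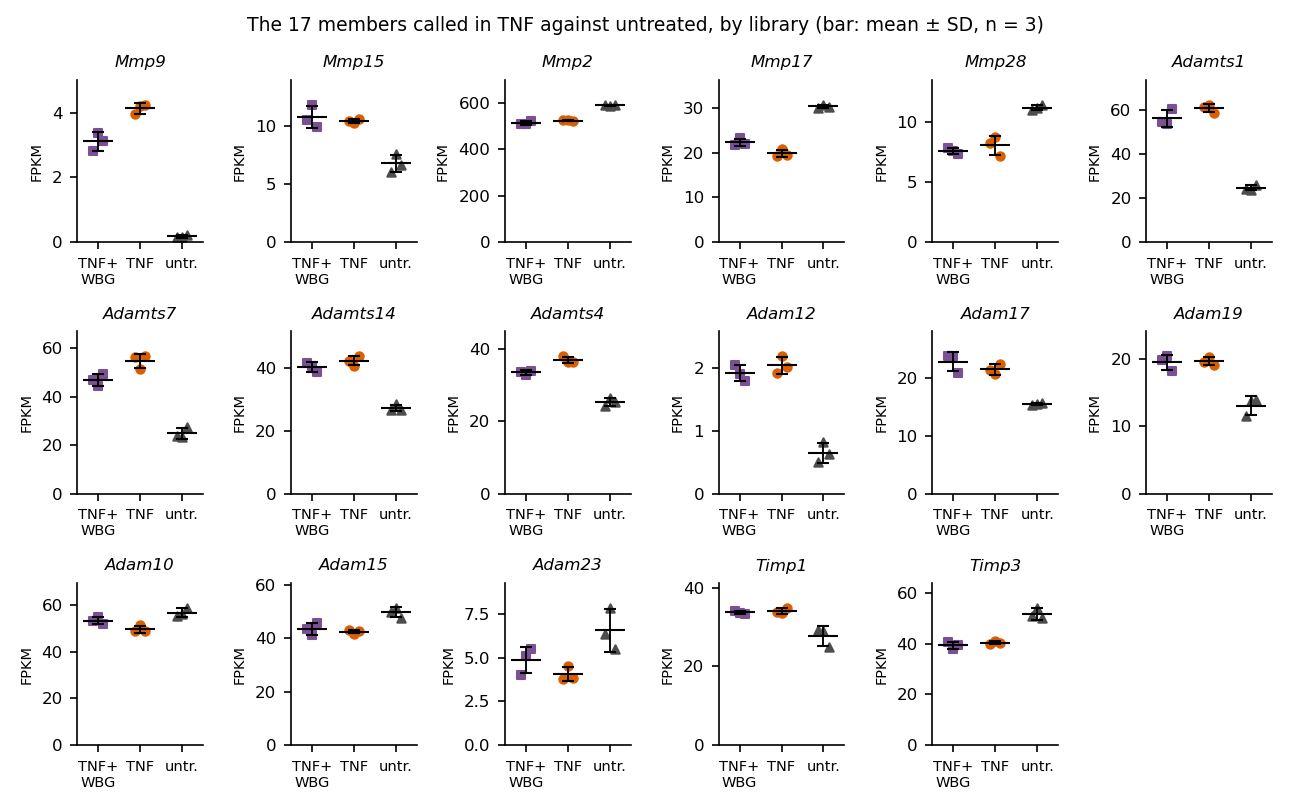
FPKM in every library, with bars for the mean and SD of each group, for the 17 genes called in TNF against untreated, in the group order TNF plus WBG, TNF and untreated. The panels of Mmp9, Adamts1 and Adamts7 show treated libraries well above untreated ones, and those of Mmp17 and Timp3 show untreated libraries above all treated ones.

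The inhibitors moved in opposite directions. Timp1, which binds many MMPs but inhibits Mmp14 poorly, was at 34.2, 33.7 and 33.3 FPKM in TNF plus WBG, at 33.9, 33.6 and 35.0 FPKM in TNF, and at 29.4, 29.0 and 24.9 FPKM in untreated libraries. It rose 1.23 times in TNF (log2 0.29 ± 0.06, limma adjusted p = 0.0159), a call lost without TNF replicate 3 (limma adjusted p = 0.0596), and untreated replicate 3 was the lowest of the 9 libraries. Timp3, which stays bound to matrix and also inhibits Adam17, Adamts4 and Adamts5, was at 40.6, 37.9 and 39.4 FPKM in TNF plus WBG, at 39.8, 40.9 and 40.1 FPKM in TNF, and at 50.7, 54.1 and 49.9 FPKM in untreated libraries. Every treated library was below every untreated one. Timp3 fell to 0.781 times its untreated mean in TNF (log2 -0.35 ± 0.04, limma adjusted p = 0.00111); 21.3% of its exon bases overlap Syn3. Timp2 was at 213, 209 and 218 FPKM in TNF plus WBG, at 226, 222 and 219 FPKM in TNF, and at 227, 229 and 229.7 FPKM in untreated libraries, and was not called (limma adjusted p = 0.475). Its TNF libraries were nevertheless all below the untreated ones, and its TNF plus WBG libraries all below the TNF ones.

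The second comparison, between TNF plus WBG and TNF, addresses the effect of the granules on cytokine-treated cells. It shares its TNF libraries with TNF against untreated, where they stand on the other side of the difference. Spread in those libraries alone therefore moves both differences, in opposite directions. No member was called by limma, nor by robust limma, and 0.0998% of all genes were. At an unadjusted p under 0.05 there were 8 of the 33 members and 1180 of the 13026 genes. The groups did not overlap for 10 members, beside 14.7% of all genes. The members' median log2 difference was -0.03. The 10 ADAMTS genes all had values below 0 (median -0.09), while 7 of 10 ADAMs lay above 0 (median 0.06) and the MMPs were split 5 and 5. Some of these signs turned when a library was left out. Adamts9 then ran from -0.035 to 0.009 and Adamts12 from -0.066 to 0.050, and Adam11, Adam15, Adam19 and Adam1a also changed sign. Of all 13026 genes, 6656 lay below 0.

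The 3 members with the smallest unadjusted p were Mmp9 (log2 -0.32 ± 0.08, limma adjusted p = 0.376), Mmp14 (-0.24 ± 0.06, limma adjusted p = 0.407) and Mmp17 (0.16 ± 0.05, limma adjusted p = 0.417). For each the 3 TNF plus WBG libraries lay on one side of the 3 TNF libraries. For Adamts4 and Adamts7 the differences were -0.14 ± 0.04 and -0.22 ± 0.07 (limma adjusted p = 0.444 and 0.469). A p above the threshold does not show that the groups were alike.

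**Figure D4:**
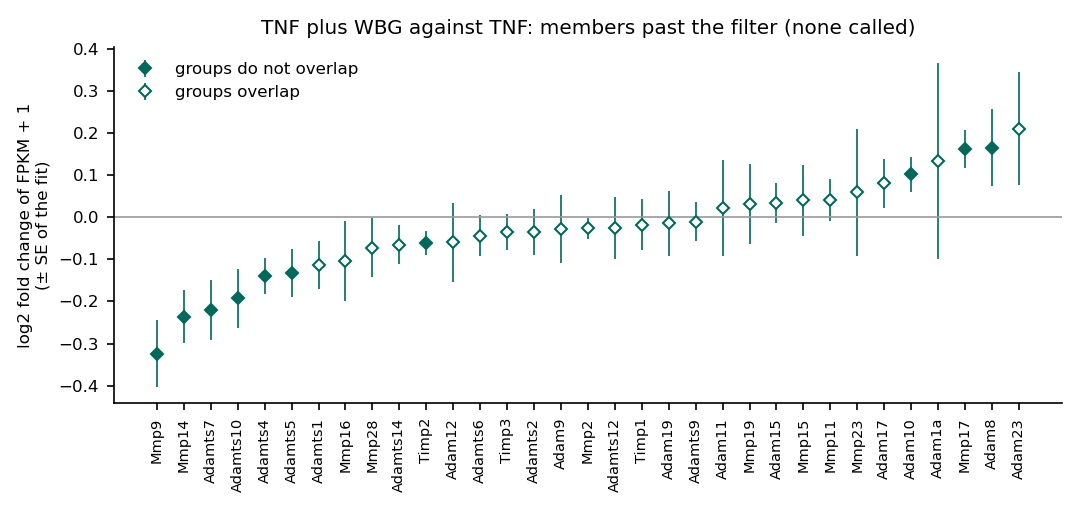
Log2 difference with its standard error for the 33 genes above the filter in TNF plus WBG against TNF, on the log2(FPKM + 1) scale, with filled points where the groups do not overlap. Values run from -0.32 for Mmp9 to 0.21 for Adam23, and no gene was called.

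In TNF plus WBG against untreated, 10 members rose, 5 fell and 18 did not pass the test. Of all genes 9.19% were called, 5.52% higher and 3.67% lower. The groups did not overlap for 20 of the 33 members, beside 28.1% of all genes. Here too Mmp9 and Adam12 passed the filter through the treated libraries alone, so their difference is in part a condition of being counted. This comparison shares its untreated libraries with TNF against untreated, and its TNF plus WBG libraries with TNF plus WBG against TNF. The log2 fold changes were 1.16 ± 0.06 for Adamts1, 0.89 ± 0.07 for Adamts7, 0.55 ± 0.05 for Adamts14 and 0.39 ± 0.04 for Adamts4 (limma adjusted p up to 0.000487). Those of Adam17, Adam12, Adam19 and Mmp15 were 0.53, 0.83, 0.54 and 0.60.

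Of the members lower than untreated, Mmp2, Mmp17, Mmp28 and Timp3 had log2 fold changes of -0.20, -0.43, -0.51 and -0.38. Adam15 had -0.19 (limma adjusted p = 0.0379), a call that did not survive leaving out 1 library in 7 of 9 cases: untreated replicates 1 and 2, each TNF replicate, and TNF plus WBG replicates 1 and 2. Timp1 rose (0.28, limma adjusted p = 0.0222), a call lost without any 1 of the TNF plus WBG replicates. Adam10 and Adam23 were not called here (-0.09 and -0.36, limma adjusted p = 0.235 and 0.145).

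Below the filter lay 45 members, of which 16 were listed at 0 in all libraries, among them Mmp20 and Timp4. Mmp9, Adam12 and Mmp23 entered with 6 libraries at 1 FPKM, and Mmp10 and Adamts17 stayed out with 2. Among the members below the filter, 7 averaged 0.1 FPKM or more over the 9 libraries: Mmp10 at 0.655, Adamts17 at 0.538, Adam4 at 0.493, Mmp3 at 0.260, Adam21 at 0.204, Adam1b at 0.199 and Adam33 at 0.176. The others were at or under 0.0819. Mmp1a matches the symbol rule but is annotated as a polymorphic pseudogene and was left out.

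Mmp3 (stromelysin-1), which degrades matrix and activates other pro-MMPs, was at 0.411, 0.512 and 0.353 FPKM in TNF plus WBG, at 0.316, 0.329 and 0.323 FPKM in TNF, and at 0.0426, 0.0257 and 0.0275 FPKM in untreated libraries. The 3 groups did not overlap. A fit was also run without a filter on low values (31192 genes, 3.5% called). In it Mmp3 was higher in TNF than untreated by 0.36 ± 0.04 on the log2(FPKM + 1) scale (limma adjusted p = 0.00343). At such low levels the pseudocount makes this difference smaller than a ratio of means. Adamts17 was at 0.220, 0.259 and 0.219 FPKM in TNF plus WBG, at 0.267, 0.161 and 0.215 FPKM in TNF, and at 0.861, 1.00 and 1.64 FPKM in untreated libraries. It was lower in TNF in that fit (-0.82 ± 0.12, limma adjusted p = 0.0103), with no overlap between treated and untreated libraries.

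Mmp10 (stromelysin-2) was at 0.944, 1.16 and 0.704 FPKM in TNF plus WBG, at 0.811, 0.563 and 1.07 FPKM in TNF, and at 0.379, 0.188 and 0.0710 FPKM in untreated libraries. Treated and untreated libraries did not overlap, but the gene was not called in that fit (limma adjusted p = 0.0858 for TNF and 0.0524 for TNF plus WBG, each against untreated, with 3.24% of genes called in the second).

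**Figure D5:**
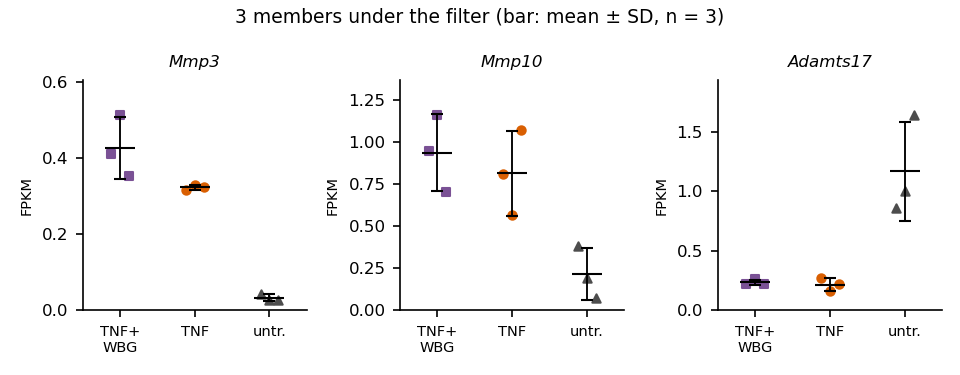
FPKM in every library, with bars for the mean and SD of each group, for Mmp3, Mmp10 and Adamts17, which lay below the filter, in the group order TNF plus WBG, TNF and untreated. Mmp3 and Mmp10 lie higher in the treated libraries and Adamts17 in the untreated ones, and no more than 2 libraries of any of the 3 genes reach 1 FPKM.

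Promoters were read because several members moved together. The RefSeq promoter table (GRCm38.p6, 250 bases before to 50 after a start) held 53 promoters of 48 members, and 23 promoters of 20 of the 33 members above the filter. AP-1 (TGANTCA, both strands) and NF-kB motifs were searched, and neither is a measured site. An AP-1 motif stood in 22.6% of the members' promoters, in 4.35% of those above the filter and in 7.81% of all 32851 promoters. For NF-kB the shares were 13.2, 8.70 and 8.46%. Of the 10 members that rose in TNF, 6 had a listed promoter, and 1 of these, Adam19, held an AP-1 or NF-kB motif. Adam17, Adamts1, Adamts14, Mmp15 and Timp1 held neither in this window. Mmp9, Adam12, Adamts4 and Adamts7 had no listed promoter and were not searched. Among members above the filter with a listed promoter, an AP-1 motif stood in 0 of 5 called lower and 0 of 9 not called. An NF-kB motif stood in 0 and 1 of these. In all, 12 members held an AP-1 motif, 1 of them above the filter. Of the others, Mmp20, Adam25 and Adam29 were listed at 0 in all libraries. Without a filter, Mmp1b, Mmp12, Mmp13, Adam1b and Adam20 were called in no comparison. The remaining holders were Mmp3, Mmp7 and Mmp10. Shown are the 150 bases before the start of 3 genes that lay higher in the treated libraries and hold an AP-1 motif, all on the plus strand, 5′ to 3′, with motifs in capitals. The 3 were picked for both traits, so they do not show how often the motif goes with a rise. Mmp3 and Mmp10 lie below the filter, and Mmp10 was not called. The first capitals of Adam19, at 1 of its 3 listed starts, are AP-1 and the second are 2 overlapping NF-kB matches, and those of Mmp3 and Mmp10 are AP-1. They lie at chr11:46055834-46055983 for Adam19, chr9:7445672-7445821 for Mmp3 and chr9:7502192-7502341 for Mmp10.
Adam19: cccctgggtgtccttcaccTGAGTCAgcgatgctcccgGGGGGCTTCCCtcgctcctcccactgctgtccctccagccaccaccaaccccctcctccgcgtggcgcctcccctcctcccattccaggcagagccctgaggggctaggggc
Mmp3: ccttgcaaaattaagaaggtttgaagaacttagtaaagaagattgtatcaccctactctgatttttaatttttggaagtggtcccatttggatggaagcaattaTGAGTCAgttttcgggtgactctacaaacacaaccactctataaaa
Mmp10: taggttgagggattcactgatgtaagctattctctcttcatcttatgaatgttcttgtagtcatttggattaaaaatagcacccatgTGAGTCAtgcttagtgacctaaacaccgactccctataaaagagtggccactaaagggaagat

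Genes that work with these proteases were counted in TNF against untreated. The counts stand beside 10.6% of all genes called there, 6.43% higher and 4.21% lower. Of 7 maturation and trafficking partners of Adam10 and Adam17 above the filter, 1 rose and 1 fell. Rhbdf2 (iRhom2), which carries Adam17 to the cell surface, averaged 13.4 ± 1.02 FPKM in TNF and 6.67 ± 0.789 in untreated libraries (log2 0.92 ± 0.09, limma adjusted p = 0.000178). Tspan15, a tetraspanin partner of Adam10, averaged 33.7 ± 1.69 FPKM in TNF and 42.4 ± 1.24 in untreated libraries (log2 -0.32 ± 0.05, limma adjusted p = 0.00249). Of 19 membrane proteins known to be shed by ADAMs, 5 rose, among them the adhesion receptor Vcam1 (log2 2.04) and the growth factor Csf1 (1.33). In that list 3 fell, among them the growth factor Btc (-1.98) and the receptor Notch1 (-0.93). The Sdc4 rise was lost without untreated replicate 3, TNF replicate 2 or TNF replicate 3, and the Sdc1 fall without any 1 untreated replicate, TNF replicate 1 or TNF replicate 2.

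The next 5 lists are again set beside 10.6% of all genes called, 6.43% higher and 4.21% lower. Of 6 genes of zymogen activation, 2 fell: Plat, the tissue plasminogen activator (log2 -0.33), and Furin, which cuts propeptides (-0.16, limma adjusted p = 0.0426), the second lost in 8 of the 9 omissions, all but that of untreated replicate 3. Of 4 other inhibitors, Serpine2, which blocks plasminogen activators and thrombin, rose (1.36). Of 10 matrix substrates, 3 rose, among them Col1a1 (0.28) and Col1a2 (0.27), and Tnc fell (-1.19). The remaining one, Col4a1, was lost without any 1 untreated replicate, TNF replicate 2, TNF replicate 3, TNF plus WBG replicate 1 or TNF plus WBG replicate 3, and Dcn was called lower without TNF replicate 2. Of 3 ADAMTS-like proteins, which lack a protease domain, Adamtsl4 rose (0.86) and Adamtsl1 fell (-0.55), the fall lost on leaving out TNF replicate 2 or 3, or 1 of untreated replicates 1 and 3. Of 7 other matrix-degrading proteases, the lysosomal cathepsins Ctsb (0.17) and Ctsd (0.13) rose, Ctsd losing its call without any 1 untreated replicate, TNF replicate 1 or TNF replicate 2. In the same list Ctsl was called without TNF replicate 1, and Htra3 without TNF plus WBG replicate 2 or 3.

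Of 15 AP-1, ETS and NF-kB transcription factors, 7 rose, among them the NF-kB subunits Relb (log2 1.98) and Nfkb2 (1.20). Another 3 fell, among them the AP-1 subunits Jun (-1.31) and Fos (-0.85). Other AP-1 subunits rose: Junb (0.45, limma adjusted p = 0.000699) and Jund (0.25, limma adjusted p = 0.0186), the second lost without TNF replicate 1 or TNF replicate 2. Over all genes 6.43% rose and 4.21% fell. In TNF plus WBG against TNF, limma called no gene of these 8 lists, beside 0.0998% of all genes. Cx3cl1 without TNF plus WBG replicate 2 and Tnfrsf1a without TNF replicate 1, both of the shed proteins, were called when those libraries were left out. In TNF against untreated the same omissions also gave those genes a call (limma adjusted p = 0.0106 and 6.76e-05). There Fosl2, of the transcription factors, was called without TNF plus WBG replicate 3 (limma adjusted p = 0.0408).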

How the data were processed

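Poly-A RNA was sequenced with paired ends in 9 libraries, per the labels' protocols. The authors deposited a table of FPKM per gene and library; the sources used here do not name the aligner, quantifier, annotation or genome build. All 9 columns matched labels, and no counts were used. Identifiers were matched to GENCODE M21 (55230 of 56289, with 5 unmatched among genes kept), from which symbols, biotypes, exon overlaps and coding sequences came. Depth was estimated from low values: in single-exon genes the product of FPKM and exon length fell near multiples of a step, 16.8 to 23.6% of values within 0.02 of a whole one, against 4% if even. Taking a step as 1 fragment gives 18.9 to 26.3 M fragments per library, and single genes were not turned into counts.

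Genes with at least 1 FPKM in at least 3 libraries (13026) were fitted as log2(FPKM + 1) with limma 3.58.1 (R 4.3.3), with trend, group as the only term and all 9 libraries in 1 fit. Tests were two-sided, with Benjamini-Hochberg adjustment over all 13026 genes and calls at an adjusted p under 0.05. The pseudocount makes log2 values of low genes smaller than ratios of means, which are given only where both means are at least 1 FPKM. The fit was run on simulated data for TNF against untreated alone, with normally spread log values. The outcome of that run is not given here, and no result rests on it. Values per library are given for members called in any comparison, for TIMPs and for the 3 members with the smallest unadjusted p in TNF plus WBG against TNF (Mmp9, Mmp14 and Mmp17). Other members above the filter are given by group means, those below it by count and range with means of 0.1 FPKM or more named, and from each pathway list up to 2 called genes per direction are named. Mmp3, Mmp7, Mmp10, Mmp12, Mmp13, Adamts15, Adamts17, Junb, Jund, Fosl2, Sdc1, Sdc4, Col4a1, Dcn, Ctsl, Htra3, Cx3cl1, Tnfrsf1a and the printed sequences were chosen after values were seen. Members and lists were chosen with earlier results of these data known. Alternatives were pseudocounts of 0.1 and 5, no filter, a mean of at least 5 FPKM, median-ratio scaling, only the 6 libraries compared, robust limma, a replicate block and omission of each library. Tables were handled with pandas 2.3.3 and numpy 2.4.6 under python 3.11.15, and figures were drawn with matplotlib 3.10.9.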

Additional observations from a re-analysis of the deposited data

How the results depend on the processing

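Of 32 member calls, 26 held under every alternative that tested the gene, and none changed direction. For 22 of these that was all 17 alternatives, and for the 4 calls of Mmp9 and Adam12 it was 16, since a mean of at least 5 FPKM removes both genes. Both genes passed the main filter through treated libraries alone. With a mean of at least 5 FPKM the members called higher numbered 8 in place of 10 in both comparisons against untreated. The calls that did not hold are those of Adam10, Adam15, Adam23 and Timp1 in TNF against untreated, and of Adam15 and Timp1 in TNF plus WBG against untreated. Members called lower in TNF against untreated numbered 7, and 4 to 7 over the omissions of a library (4 without TNF replicate 3). All genes called in TNF against untreated numbered 1386, and 919 to 1296 over the omissions (919 without TNF replicate 3). In TNF plus WBG against TNF 13 genes were called, 7 with only the 6 libraries compared, 8 with the replicate block, and 8 to 14 over the omissions (8 without untreated replicate 1). No member was called there under any alternative. With no filter Adam23 in TNF against untreated (adjusted p = 0.0801), and Adam15 (0.0683) and Timp1 (0.0516) in TNF plus WBG against untreated, were not called by limma. In the last comparison, Mmp11 was called without TNF plus WBG replicate 1 (0.0384).

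Pairing by replicate number was not seen, though 3 libraries per group cannot exclude it. Correlations of same-numbered deviations ran from -0.0721 to 0.107, and those of differently numbered ones from -0.0963 to 0.0945. The highest was that of TNF replicate 1 with TNF plus WBG replicate 1. With the replicate block limma called 1159 genes in TNF against untreated and 1046 in TNF plus WBG against untreated, and Adam15 lost its call in TNF plus WBG against untreated (adjusted p = 0.0802). FPKM without counts gives no counting error, so values under 1 FPKM are the least certain, and 3 libraries per group limit the smaller differences.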

Other observations

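Mmp7 (matrilysin), far below the filter, was at 0.0815, 0.151 and 0.0992 FPKM in TNF plus WBG, at 0.0888, 0.0418 and 0.0995 FPKM in TNF, and was listed at 0 in all 3 untreated libraries. In the fit with no filter it was called higher in TNF plus WBG against untreated (limma adjusted p = 0.0329, with 3.24% of genes called) and not in TNF against untreated (0.111). That call rests on values near the floor, and an antisense gene overlaps 11.5% of the exon bases of Mmp7. Adamts15 averaged 0.0250 ± 0.0171 FPKM in TNF plus WBG, 0.0525 ± 0.0170 in TNF and 0.0962 ± 0.0154 in untreated libraries (SD, n = 3 each). In that fit limma called it lower in TNF plus WBG against untreated (adjusted p = 0.0458, with 3.24% of genes called) and not in TNF against untreated (0.222). The Adamts15 call likewise rests on values near the floor. The collagenase Mmp13 reached at most 0.124 FPKM in any library, and the macrophage elastase Mmp12 at most 0.0237 FPKM, with 0 listed in 5 of the 9 libraries.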
